A study of Mus musculus with 160 samples.

Results

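The genes described here encode neuronal receptors for acetylcholine. They are 8 subunits of nicotinic receptors (Chrna3, Chrna4, Chrna5, Chrna6, Chrna7, Chrnb2, Chrnb3 and Chrnb4) and the muscarinic receptors Chrm1 and Chrm2. These 10 genes were found by symbol among the 39179 genes of the deposited count table, each in a single row. They were selected on earlier results from these data, namely their levels by brain region and their genotype differences under vehicle. Those values are therefore given as a description without a test, and the genotype test rests on the libraries of drug-treated mice.

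Nicotinic receptors are ion channels built from 5 subunits that open when acetylcholine binds, while muscarinic receptors act through G proteins. In the forebrain most high-affinity nicotine binding sites contain the α4 and β2 subunits, and α7 forms channels of its own. The α3 and β4 subunits are typical of autonomic ganglia and the medial habenula, and α6 and β3 of dopamine neurons. M1 couples to Gq and is abundant in cortical and striatal neurons. M2 couples to Gi and acts in part as an autoreceptor on cholinergic endings.

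Total RNA was sequenced from flash-frozen striatum, cortex, cerebellum and liver of mice aged 12 weeks on a C57BL/6J background. The mice were wild type (WT) or carried Tg(HDexon1)62Gpb (R6/2), a randomly inserted transgene with the first exon of human huntingtin and an expanded CAG repeat, a model of Huntington's disease in which the mice keep their own huntingtin genes. A single oral dose was given, either of the kynurenine monooxygenase inhibitor CHDI-00340246 at 10 mg/kg or of its vehicle of hydroxypropyl-β-cyclodextrin in citrate buffer, and tissue was taken 6 h later. With 4 tissues, both genotypes and both treatments there were 16 groups, each of 10 libraries with 5 of either sex. Nothing in the labels states whether the tissues came from the same mice. The running numbers in the cerebellar and cortical library names repeat at a fixed step within each group and sex. The striatal names follow the same step, at least in vehicle-treated R6/2 females. Such a pattern would arise if the same mice gave these tissues, and this was not tested.

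The estimated counts per library ran from 30192678 to 46301317 in the striatum, from 28471184 to 44245124 in the cortex and from 30491240 to 44400003 in the cerebellum. Levels of single libraries are given as CPM, counts scaled to library size with TMM factors. Some genes did not pass the filter on low counts and were not tested, with group medians of at most 7 counts per library: Chrna6 and Chrnb3 in the striatum, Chrnb4 in the cortex, and Chrna5, Chrna6 and Chrnb3 in the cerebellum. In the cortex Chrna6 and Chrna3, and in the cerebellum Chrna3 and Chrnb4, were high enough to be tested through their WT libraries, so counts over the tested genes are a description and not support for a common direction.

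**Figure D1:**
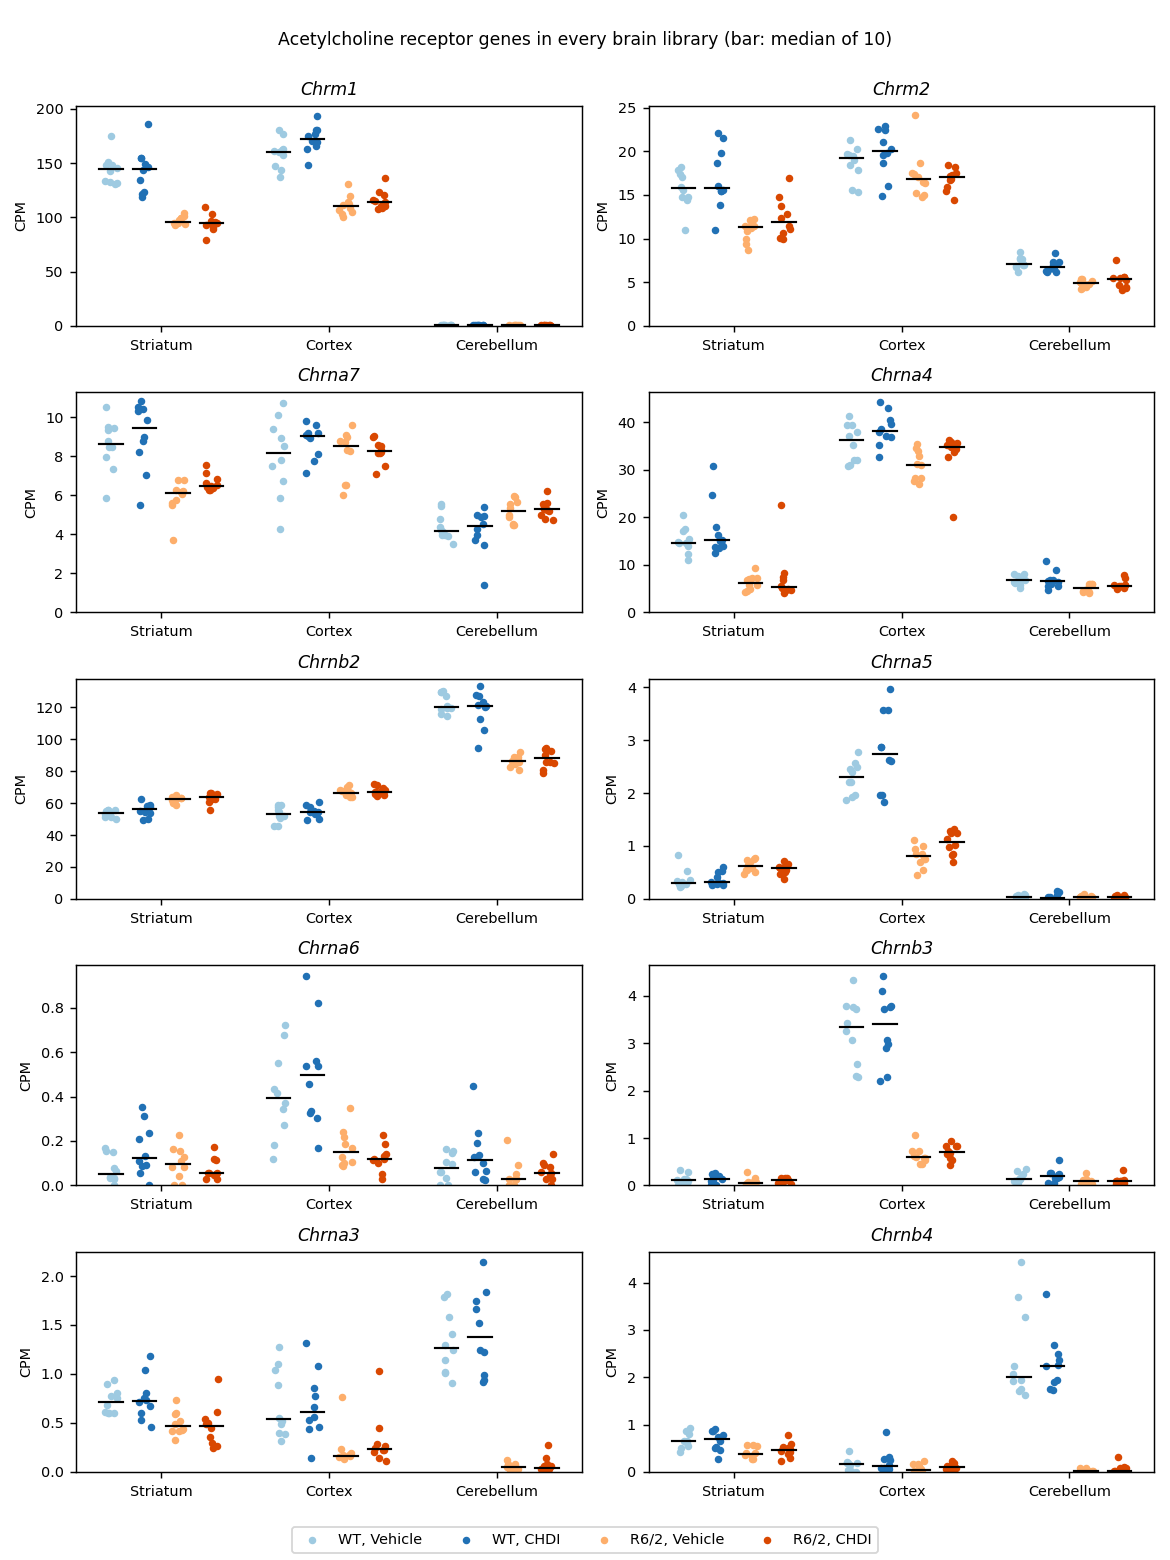
CPM of the 10 receptor genes in every brain library, 1 panel per gene, with the 4 groups of each region side by side and a bar at the median of 10 libraries. Chrna3 and Chrnb4 are near 0 in the cerebellum of every R6/2 group, Chrnb3 and Chrna5 are low in the R6/2 cortex, and Chrnb2 is lower in the R6/2 cerebellum and higher in the R6/2 cortex.

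The receptors present differed by region. Per gene length, in WT vehicle libraries, Chrm1 stood highest of the 10 in the cortex at 33.2 ± 2.83 FPKM (fragments per kilobase of transcript, scaled to library size, SD, n = 10) and in the striatum at 31.4 ± 3.3 FPKM. In the cerebellum Chrm1 was at 0.104 ± 0.0455 FPKM, and Chrnb2 led with 22.2 ± 1.05 FPKM. Chrnb2 was second in the striatum at 9.38 ± 0.534 FPKM and in the cortex at 9.6 ± 0.847 FPKM, where its range overlapped that of Chrna4 at 7.74 ± 0.887 FPKM. Chrna7 and Chrm2 were between 1.25 and 3.86 FPKM in every region. Chrna4 was lower outside the cortex, at 3.18 ± 0.586 FPKM in the striatum and 1.5 ± 0.208 FPKM in the cerebellum. Chrna3, Chrna5, Chrna6, Chrnb3 and Chrnb4 had means below 1 FPKM in every region.

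The order of regions differed between the subunits, by CPM of WT vehicle libraries. Chrna4 was highest in the cortex, then the striatum, then the cerebellum, and the ranges of the 10 libraries did not overlap between neighbours. Chrna5 had the same order with separate ranges, at 6.27 times its striatal mean in the cortex. Chrnb3 stood 19.3 times higher in the cortex than in the cerebellum, and its cerebellar and striatal ranges overlapped. Chrnb4 and Chrnb2 were highest in the cerebellum, apart from the other regions, whose ranges overlapped for both genes. Chrna3 was also highest in the cerebellum by its mean, but neighbouring regions overlapped. The striatal and cortical ranges of Chrm1 and of Chrm2 overlapped, and both genes were lowest, and separate, in the cerebellum. Chrna7 and Chrna6 overlapped between all neighbours.

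**Figure D2:**
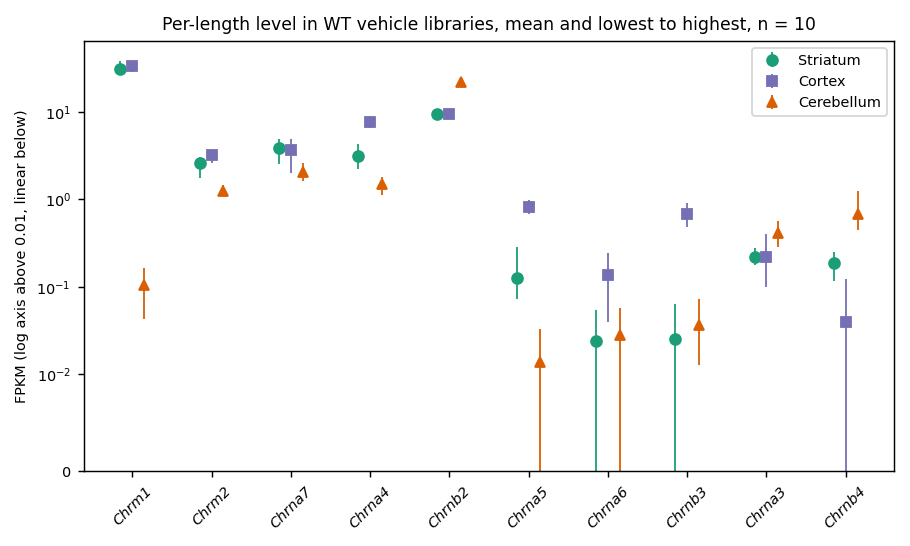
FPKM of the 10 genes in WT vehicle libraries of the striatum, cortex and cerebellum, as the mean and the lowest to highest of 10 values, on an axis that is logarithmic above 0.01 and linear below. Chrm1 and Chrnb2 are the highest genes, Chrm1 is low in the cerebellum, and Chrna5, Chrna6, Chrnb3, Chrna3 and Chrnb4 lie below 1 FPKM.

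The genotype question, whether receptor transcripts differ in R6/2 brain, was tested in CHDI-treated mice. In the striatum 6 of 8 tested genes were lower and 2 higher at an adjusted p under 0.05 (edgeR quasi-likelihood, Benjamini-Hochberg over all genes), where 58.1% of all genes passed (29.7% higher and 28.4% lower). In the cortex 7 of 9 were lower and 1 higher, against 57.1% of all genes (29.2% higher and 27.9% lower). In the cerebellum 4 of 7 were lower and 1 higher, against 54.6% of all genes (27.9% higher and 26.7% lower). The median log2 fold change of the tested receptor genes was -0.48 in the striatum, -0.57 in the cortex and -0.43 in the cerebellum, and that of all genes was 0.01 in each. With so many genes passing, these counts alone say little about the receptor genes, whose changes differed widely in size.

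**Figure D3:**
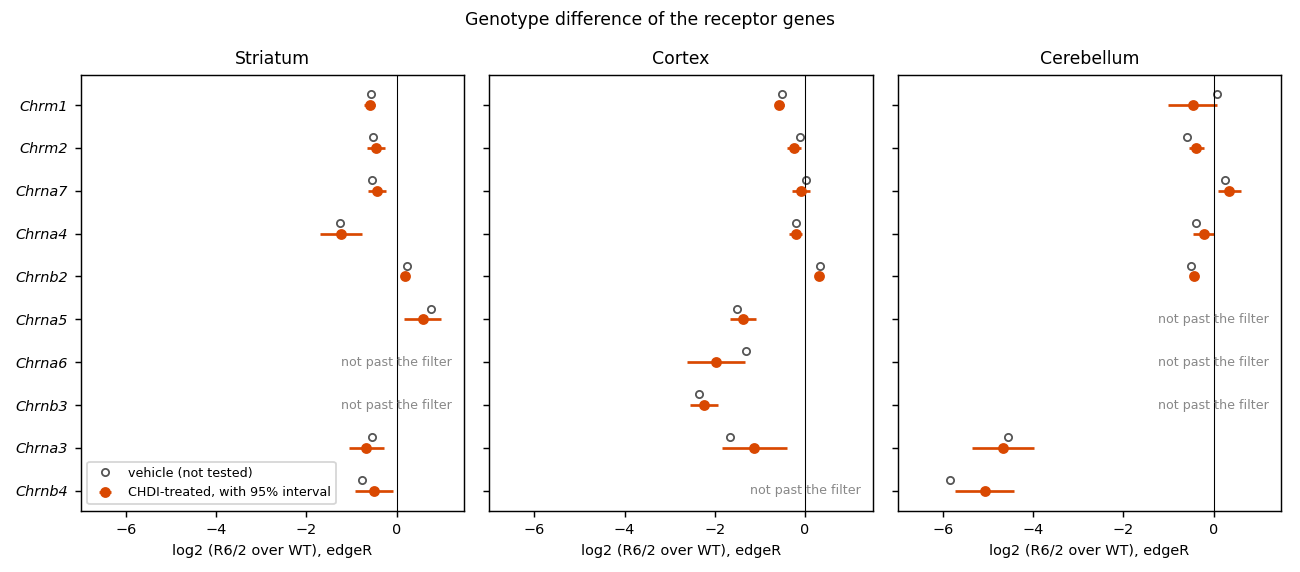
Log2 fold change of R6/2 over WT for each receptor gene and region, from edgeR, with filled points and 95% intervals for CHDI-treated libraries and open points for vehicle libraries, which were not tested. The largest decreases are Chrna3 at -4.66 and Chrnb4 at -5.07 in the CHDI-treated cerebellum, Chrnb2 changes sign between regions, and all other CHDI values lie between -2.24 and 0.58.

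The ganglionic subunits Chrna3 and Chrnb4 nearly vanished from the R6/2 cerebellum. They encode partner subunits of the same receptor and lie side by side, with Chrna5, on chromosome 9 of GRCm38 (Chrna5 at chr9:54980880-55007779 on the plus strand, Chrna3 at chr9:55010111-55026562 and Chrnb4 at chr9:55028154-55048779 on the minus strand). Their promoters are shown because these genes gave the largest changes. Each window runs from 250 bases before to 50 bases after the RefSeq start of the gene, on the gene's strand, in GRCm38.p6, with the letters of a motif match in capitals.
Chrna3 promoter, chr9:55026513-55026812, minus strand: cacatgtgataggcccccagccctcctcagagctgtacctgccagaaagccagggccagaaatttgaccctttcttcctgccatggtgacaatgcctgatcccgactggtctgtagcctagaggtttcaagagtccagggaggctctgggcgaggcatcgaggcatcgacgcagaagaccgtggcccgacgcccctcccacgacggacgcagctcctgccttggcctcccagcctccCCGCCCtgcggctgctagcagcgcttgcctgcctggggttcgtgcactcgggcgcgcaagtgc
Chrnb4 promoter, chr9:55048495-55048794, minus strand: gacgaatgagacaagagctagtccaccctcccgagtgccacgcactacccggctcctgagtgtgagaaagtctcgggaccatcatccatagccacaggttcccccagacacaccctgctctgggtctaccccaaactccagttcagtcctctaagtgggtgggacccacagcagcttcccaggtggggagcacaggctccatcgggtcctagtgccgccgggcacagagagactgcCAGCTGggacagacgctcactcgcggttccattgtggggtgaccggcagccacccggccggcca
The motifs searched, on both strands, were the GC box GGGCGG, the E-boxes CAGCTG and CACGTG, the cAMP response element TGACGTCA and the TATA box TATAAA. The Chrna3 window held 1 GC box, on the reverse strand, and no other match, and 35.7% of 32851 RefSeq promoter windows held a GC box. The Chrnb4 window held 1 CAGCTG and no other match, and 16.3% of the windows held that motif. RefSeq windows were found for 7 of the 10 genes.

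Chrna3, the α3 subunit, was between 0.92 and 2.14 CPM in the WT cerebellum after CHDI, with a median of 1.38 CPM. In the R6/2 cerebellum it was between 0 and 0.276 CPM, with a median of 0.0433 CPM and no counts in 3 of 10 libraries. All 10 R6/2 libraries lay below every WT library. The mean was 21.2-fold lower, and the fit gave a log2 fold change of -4.66 with an SE of 0.34 (edgeR adjusted p = 1.7e-14). The 10 R6/2 libraries together held 26 counts of Chrna3, against 493 in WT. The gene was tested through its WT libraries, so its p-value is a description.

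Chrnb4, the β4 subunit, showed the same picture from a higher level. WT values ran from 1.73 to 3.75 CPM around a median of 2.24 CPM, and R6/2 values from 0 to 0.322 CPM around a median of 0.0301 CPM. The groups did not overlap. The log2 fold change was -5.07 ± 0.32 (SE, edgeR adjusted p = 2.8e-16), with 29 counts over the 10 R6/2 libraries and 799 in WT. Chrnb4 too was tested through its WT libraries, and its p-value is a description. Under vehicle the values, untested, were 0 to 0.0905 CPM in R6/2 against 1.62 to 4.43 CPM in WT for Chrnb4, and 0 to 0.117 CPM against 0.908 to 1.82 CPM for Chrna3.

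Other genes moved in the same cerebellar libraries. All 6 Purkinje cell markers fell, where 26.7% of all genes did. Their summed level was 2504.8 to 2924.7 CPM in R6/2 against 8460.4 to 9780.6 CPM in WT. The same 6 also fell in the cortex, from 983.3 to 1350.5 CPM in WT to 710.2 to 788.5 CPM in R6/2. In the striatum 3 of them fell. After CHDI the median sums in R6/2 and WT were 2771.9 and 8913.1 CPM in the cerebellum. They were 746.2 and 1197.7 CPM in the cortex, and 950.2 and 1724.5 CPM in the striatum. Of 5 granule cell markers 2 fell and 2 rose in the cerebellum, and their sum was 2599.1 to 2961.7 CPM against 3408.0 to 4060.0 CPM. Of 3 unipolar brush cell markers 2 fell, Eomes among them with a log2 fold change of -2.54 with an SE of 0.21 (edgeR adjusted p = 1.0e-12), and their sum was 214.4 to 243.6 CPM against 300.9 to 383.4 CPM. For the medial habenula, where α3 and β4 are abundant, 2 of 4 tested markers rose and 1 fell. The marker sum was 17.7 to 22.8 CPM against 22.5 to 32.1 CPM. Tac2 was below 0.1 CPM in every R6/2 library and also in every WT vehicle library. No defining marker of Purkinje, granule or unipolar brush cells was absent. In tissue RNA fewer cells of a type and less RNA per cell cannot be told apart, and the part of these cell types in the receptor values was not tested.

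Some cerebellar libraries held choroid plexus transcripts, 4 of 10 in each CHDI-treated genotype with a summed marker level above 100 CPM, and none of the 4 markers was called between genotypes. Without all such libraries the log2 fold change was -5.40 for Chrna3 and -5.55 for Chrnb4.

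Outside the cerebellum the same subunits changed less. In the striatum Chrna3 was 0.248 to 0.946 CPM in R6/2, median 0.469 CPM, and 0.457 to 1.18 CPM in WT, median 0.725 CPM. The ranges overlapped, and Chrna3 fell by 0.68 on the log2 scale with an SE of 0.19 (edgeR adjusted p = 0.0027). Without the libraries numbered 3 in each sex the adjusted p was 0.068. Chrnb4 in the striatum was 0.231 to 0.771 CPM in R6/2 and 0.268 to 0.912 CPM in WT, with a log2 fold change of -0.50 with an SE of 0.21 (edgeR adjusted p = 0.039). That call was lost without any of 3 replicate numbers, with the number after the letter L in the library name, which the labels do not explain, as a term (adjusted p = 0.27), without the filter and on every FPKM scale.

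In the cortex Chrna3 was 0.107 to 1.03 CPM in R6/2, median 0.234 CPM, against 0.141 to 1.32 CPM in WT, median 0.61 CPM. Its log2 fold change was -1.13 ± 0.36 (SE, edgeR adjusted p = 0.0071), with 9 of 10 R6/2 libraries below the WT mean. Its R6/2 libraries held a median of 8 counts, against 20 in WT. Cortical Chrna3 was tested through its WT libraries, so its p-value is a description. Without the libraries numbered 2 the adjusted p was 0.075. Chrnb4 was at 0.112 ± 0.0687 CPM in R6/2 and 0.213 ± 0.248 CPM in WT (SD, n = 10) in the cortex and was not tested.

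Chrna5, the accessory α5 subunit from the same cluster, moved in opposite directions in the forebrain regions. In the cortex it was 0.696 to 1.33 CPM in R6/2, median 1.07 CPM, and 1.84 to 3.96 CPM in WT, median 2.75 CPM. The groups did not overlap, and the log2 fold change was -1.38 with an SE of 0.14 (edgeR adjusted p = 1.2e-10). In the striatum it was 0.37 to 0.715 CPM in R6/2, median 0.586 CPM, and 0.256 to 0.601 CPM in WT, median 0.321 CPM. There 9 of 10 R6/2 libraries were above the WT mean, and Chrna5 rose by 0.58 ± 0.20 on the log2 scale (SE, edgeR adjusted p = 0.012). The striatal rise missed the threshold without the libraries numbered 2 (adjusted p = 0.076) or 4 (adjusted p = 0.11), and the gene was not tested under the filter on mean CPM. The difference between the striatal and cortical effects was itself 1.93 ± 0.33 log2 units (SE, edgeR adjusted p = 9.8e-06), where 19.5% of all genes passed. In the cerebellum Chrna5 had at most 5 counts in any library.

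Values were also read for 6 protein-coding neighbours of the cluster. In the cerebellum Nrg4 fell by 0.40 on the log2 scale with an SE of 0.07 (edgeR adjusted p = 1.6e-05), and the other 4 tested neighbours, Psma4, Hykk, Ube2q2 and Fbxo22, had log2 fold changes between -0.05 and 0.15 with adjusted p from 0.07 to 0.31. In the striatum Fbxo22, Hykk and Psma4 rose by 0.27, 0.38 and 0.20 on the log2 scale, and Nrg4 fell by 0.48. In the cortex Fbxo22, Psma4 and Ube2q2 rose and Nrg4 fell, with all 4 changes at or below 0.30 log2 units in size. AY074887 was below 0.08 CPM in every group mean and was not tested.

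Chrnb3 and Chrna6, the β3 and α6 subunits of dopamine neuron receptors, lie next to each other on chromosome 8 and fell together in the cortex. Chrnb3 was 0.426 to 0.939 CPM in R6/2, median 0.699 CPM, and 2.21 to 4.42 CPM in WT, median 3.4 CPM. No R6/2 library reached a WT library, and the log2 fold change was -2.24 with an SE of 0.15 (edgeR adjusted p = 3.3e-15). Chrna6 was 0.0303 to 0.225 CPM in R6/2, median 0.12 CPM, and 0.17 to 0.943 CPM in WT, median 0.496 CPM. Its ranges overlapped, its R6/2 libraries were all below the WT mean, and the log2 fold change was -1.98 with an SE of 0.31 (edgeR adjusted p = 1.4e-06). Cortical Chrna6 was tested through its WT libraries, so this p-value is a description. Chrna6 had 44 counts over the 10 R6/2 libraries and 175 over the WT libraries.

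Of 4 dopamine neuron markers tested in the cortex 1 rose and none fell, their sum was 10.4 to 29 CPM in R6/2 and 11.9 to 20.8 CPM in WT, and Pitx3 and En1 were below 0.1 CPM in every library of both groups. Of 7 cortical projection neuron markers 5 fell and 1 rose, where 27.9% of all genes fell and 29.2% rose. Their sums were 1024.6 to 1413.3 CPM against 1648.3 to 2023.7 CPM, and their part in the Chrnb3 and Chrna6 values was not tested. The 4 tested neighbours of the pair also fell in the cortex, where 27.9% of all genes did. Adrb3, 137866 bp away, fell by 1.52 ± 0.14 on the log2 scale (SE, edgeR adjusted p = 6.3e-12), and Eif4ebp1, 93055 bp away, by 0.61 ± 0.11. Unc5d, 1232773 bp away, fell by 0.52 ± 0.07, and Dusp26, 3675583 bp away, by 0.45 ± 0.08. Of 4 tested neighbours 3 also fell in the striatum (28.4% of all genes) and 3 in the cerebellum (26.7% of all genes).

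In the striatum and cerebellum Chrnb3 and Chrna6 were at 0.0638 to 0.215 CPM in the group means after CHDI and did not pass the filter there. The joint fit over the 3 regions tested Chrnb3 through its cortical libraries alone, so its differences between regions, 1.86 ± 0.47 log2 units for striatum minus cortex and 1.29 ± 0.46 for cerebellum minus cortex (SE), are given as a description. The latter was 0.59 without the libraries high in markers of other tissues.

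Of the common heteromeric receptor, the α4 subunit fell in the striatum and cortex, and the β2 subunit rose in the striatum and cortex and fell in the cerebellum. Chrna4 in the striatum was 4.13 to 22.6 CPM in R6/2, median 5.28 CPM, and 12.5 to 30.7 CPM in WT, median 15.1 CPM. A single R6/2 library exceeded the WT mean, and the other 9 were below every WT library. The log2 fold change was -1.23 ± 0.23 (SE, edgeR adjusted p = 2.4e-05), a mean 2.33-fold lower in R6/2. In the cortex Chrna4 was 20 to 36.2 CPM in R6/2 and 32.6 to 44.3 CPM in WT, and fell by 0.21 with an SE of 0.07 (edgeR adjusted p = 0.011). The cortical call was lost without the libraries numbered 3 (adjusted p = 0.052) and on FPKM (adjusted p = 0.11 to 0.16). In the cerebellum Chrna4 was 5 to 7.82 CPM in R6/2 against 4.75 to 10.8 CPM in WT, with a log2 fold change of -0.22 and a 95% interval from -0.45 to 0.02 (edgeR adjusted p = 0.11). It passed there with the L number as a term, at -0.43 (adjusted p = 0.0071), and without the libraries numbered 1 (adjusted p = 0.043) or 5 (adjusted p = 0.047), and the value was -0.05 without the libraries high in choroid plexus markers. The striatal effect was larger than the cortical one by -1.04 ± 0.27 log2 units (SE, edgeR adjusted p = 0.0033), a call that was lost without the libraries numbered 2 or 3.

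High Chrna4 in the striatum went with thalamus markers. The 4 striatal libraries with a summed level of 5 thalamus markers above 150 CPM, 1 R6/2 and 2 WT libraries after CHDI and 1 WT library after vehicle, also had the highest Chrna4 of their groups. The R6/2 library with 22.6 CPM of Chrna4 had a marker sum of 205.7 CPM, and the other 9 R6/2 libraries of that group had sums of 76.7 to 101.4 CPM. The WT libraries with 30.7 and 24.8 CPM had sums of 341.9 and 245.1 CPM. Of the 5 markers 1 fell in R6/2 striatum after CHDI, none rose and none was absent. Without those 4 libraries the log2 fold change of Chrna4 was -1.40. The difference of striatum and cortex, without all libraries high in markers of another tissue, was -1.16. The limit was set after the data were seen and takes out the highest Chrna4 values, which narrows the spread. These 2 values are therefore a description without a test.

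**Figure D4:**
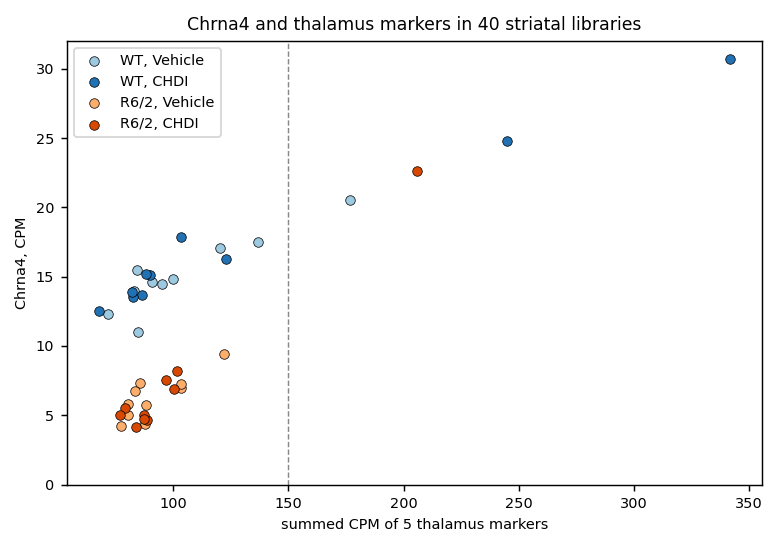
Chrna4 in CPM against the summed CPM of 5 thalamus markers in the 40 striatal libraries, colored by group, with a dashed line at 150 CPM. The 4 libraries to the right of the line have 20.5 to 30.7 CPM of Chrna4, and to the left the R6/2 libraries lie between 4.13 and 9.4 CPM and the WT libraries between 11 and 17.9 CPM.

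Chrnb2 encodes the β2 subunit, the usual partner of α4. In the cortex after CHDI it was 64.6 to 72.1 CPM in R6/2, median 67.2 CPM, and 49.5 to 60.7 CPM in WT, median 54.3 CPM. All R6/2 libraries were above all WT libraries, with a log2 fold change of 0.31 with an SE of 0.04 (edgeR adjusted p = 4.4e-09). In the striatum it was 56 to 66.5 CPM in R6/2 and 49.5 to 62.8 CPM in WT, overlapping, and rose by 0.18 ± 0.04 on the log2 scale (SE, edgeR adjusted p = 4.8e-05). In the cerebellum, where it was highest, R6/2 libraries held 78.7 to 94.3 CPM, median 88 CPM, and WT libraries 94.4 to 133.5 CPM, median 121.1 CPM. The cerebellar groups were separate, and Chrnb2 fell by 0.43 with an SE of 0.05 (edgeR adjusted p = 2.6e-10). The cerebellar effect differed from the cortical one by -0.76 ± 0.06 log2 units (SE, edgeR adjusted p = 1.7e-14) and from the striatal one by -0.61 ± 0.06 (SE, edgeR adjusted p = 1.4e-11).

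Adar lies on the opposite strand at the same place, and 16.3% of the exonic bases of Chrnb2 in GENCODE M21 are also exonic in Adar. The counting strand is not given in the sources used here, so reads from the shared bases cannot be assigned with certainty. Adar itself had log2 fold changes of -0.04, -0.06 and 0.04 in the striatum, cortex and cerebellum (edgeR adjusted p = 0.47, 0.31 and 0.5).

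Chrna7 encodes the α7 subunit of homomeric channels. In the striatum it was 6.25 to 7.54 CPM in R6/2, median 6.49 CPM, and 5.52 to 10.8 CPM in WT, median 9.42 CPM. All 10 R6/2 libraries were below the WT mean, within ranges that overlapped, and the log2 fold change was -0.44 with an SE of 0.10 (edgeR adjusted p = 0.00021). In the cortex it was 7.11 to 9.01 CPM against 7.15 to 9.79 CPM, with a log2 fold change of -0.09 and a 95% interval from -0.29 to 0.12 (edgeR adjusted p = 0.47). In the cerebellum it was 4.72 to 6.19 CPM in R6/2 and 1.38 to 5.41 CPM in WT, and rose by 0.35 ± 0.13 on the log2 scale (SE, edgeR adjusted p = 0.018). The cerebellar rise was lost without the libraries numbered 1 or 3 and with the L number as a term (adjusted p = 0.051, 0.11 and 0.077). The effect in the cerebellum exceeded that in the striatum by 0.80 ± 0.15 log2 units (SE, edgeR adjusted p = 3.4e-05), and exceeded that in the cortex by 0.42 ± 0.15 (SE, edgeR adjusted p = 0.031).

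The muscarinic receptors fell in the forebrain. Chrm1, the Gq-coupled M1 receptor, was 79.5 to 109.2 CPM in R6/2 striatum, mean 94.8 CPM, and 118.9 to 186.1 CPM in WT, mean 143.2 CPM. In the cortex it was 107.3 to 136.2 CPM against 148.4 to 193.3 CPM, with medians of 114.7 and 172.7 CPM. The groups did not overlap in either region, and the log2 fold changes were -0.60 ± 0.06 in the striatum and -0.57 ± 0.05 in the cortex (SE, edgeR adjusted p = 1.4e-10 and 3.5e-13). The difference of those effects was -0.05 log2 units with a 95% interval from -0.29 to 0.18. In the cerebellum Chrm1 was 0.243 to 0.556 CPM in R6/2 and 0.2 to 1.19 CPM in WT, with an estimate of -0.46 ± 0.26 (SE, edgeR adjusted p = 0.14). It passed there without the libraries numbered 3 (adjusted p = 0.04). Gm22820, on the opposite strand, shares 5.07% of the exonic bases of Chrm1, and reads from these bases cannot be assigned with certainty either.

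Chrm2, the Gi-coupled M2 receptor, fell in all 3 regions. In the striatum it was 9.96 to 16.9 CPM in R6/2, median 11.9 CPM, and 11 to 22.1 CPM in WT, median 15.8 CPM. In the cerebellum it was 4.07 to 7.52 CPM, median 5.37 CPM, and 6.19 to 8.33 CPM, median 6.69 CPM. The ranges overlapped in both, with log2 fold changes of -0.45 ± 0.10 and -0.38 ± 0.08 (SE, edgeR adjusted p = 0.00017 and 8.7e-05). In the cortex Chrm2 was 14.4 to 18.4 CPM against 14.9 to 22.9 CPM, and the log2 fold change of -0.24 with an SE of 0.08 (edgeR adjusted p = 0.0081) missed the threshold without the libraries numbered 2 (adjusted p = 0.11) and on FPKM (adjusted p = 0.095 to 0.14). No difference of the Chrm2 effect between regions passed the test. A lincRNA, 9330158H04Rik, shares 2.35% of the exonic bases of Chrm2 on the opposite strand.

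Markers of striatal cell types moved beside the striatal receptor values. Of 8 medium spiny neuron markers 7 fell, where 28.4% of all genes did. Their sums were 1533.5 to 2225.6 CPM in R6/2 and 4518.1 to 7147.5 CPM in WT after CHDI. Of 6 cholinergic neuron markers 5 fell and Isl1 rose, and the sums were 59.1 to 72.5 CPM against 114.9 to 150.9 CPM. Slc18a3 of the cholinergic list was not matched in the count table. No matched marker of either list was absent, and the part of these cells in the receptor values was not tested.

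Counted by region, the libraries of the 2 genotypes were fully separate for 1 of 8 tested receptor genes in the striatum (18% of all genes tested), 4 of 9 in the cortex (18.3%) and 3 of 7 in the cerebellum (17%). The genotype effect differed between striatum and cortex for 3 of the 10 genes (19.5% of all genes), between cerebellum and cortex for 5 (30.8% of all genes) and between cerebellum and striatum for 5 (36.1% of all genes). Chrnb3 in both of its comparisons, and Chrnb4 in that of cerebellum and cortex, are counted although the gene did not pass the filter in one of the regions compared. Those values are a description. For Chrna3 the cerebellar minus cortical difference was -3.55 ± 0.53 log2 units and the cerebellar minus striatal difference -3.98 ± 0.52 (SE, edgeR adjusted p = 2.8e-07 and 6.9e-09). For Chrnb4 the cerebellar minus striatal difference was -4.58 ± 0.51 (SE, edgeR adjusted p = 1.1e-10). Its cerebellar minus cortical difference, -4.21 ± 0.61 (SE), is given as a description.

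The vehicle libraries helped choose the genes, so their likeness to the CHDI-treated libraries is a description and no support. The sign of the log2 fold change differed for Chrna7 in the cortex, at 0.02, and for Chrm1 in the cerebellum, at 0.07. It was the same for the other tested pairs of gene and region. The share of all genes with the same sign was not computed. The vehicle values were -1.26 for Chrna4 and 0.77 for Chrna5 in the striatum. They were -2.35 for Chrnb3 and -1.52 for Chrna5 in the cortex, and -5.84 for Chrnb4 in the cerebellum. In the cortex 6 R6/2 and 3 WT vehicle libraries had summed cholinergic neuron markers above 4 CPM. No value under vehicle was tested.

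The single dose of CHDI-00340246 moved no receptor gene past the threshold in either genotype. In WT 0 of the tested receptor genes passed in any region, where 0% of all genes passed with edgeR, and DESeq2 called no receptor gene either. Unadjusted, Chrm1 in the cortex had p = 0.015, with a log2 difference of 0.12 and a 95% interval from 0.02 to 0.21. In R6/2 again 0 passed by either tool, and Chrna5 in the cortex had the lowest unadjusted p, 0.0091, with a log2 difference of 0.41, a 95% interval from 0.11 to 0.71 and an edgeR adjusted p of 0.43. The 2 arms of that cortical contrast differed in markers of striatal cells. Summed cholinergic neuron markers were above 4 CPM in 6 vehicle and 1 CHDI-treated R6/2 libraries, with medians of 10.4 and 1.9 CPM. Medium spiny neuron markers had medians of 178.0 and 76.4 CPM, and the part of this difference in the Chrna5 value was not tested. The share of all genes called in R6/2 was 0% in the striatum, 0.125% in the cortex and 0.0407% in the cerebellum. For the abundant genes the intervals were narrow, at -0.16 to 0.09 for Chrm1 and -0.05 to 0.10 for Chrnb2 in R6/2 striatum. For the sparse genes they were wide, at -0.39 to 1.74 for Chrnb4 in R6/2 cerebellum.

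Neither the interaction of treatment and genotype nor that of genotype and sex passed for any receptor gene with edgeR or DESeq2, and no receptor gene was called between females and males. Unadjusted, Chrna7 in the cortex and Chrnb4 in the cerebellum had p under 0.05 for sex. Chrnb4 had a female minus male difference of 0.69 log2 units with a 95% interval from 0.14 to 1.25 (edgeR adjusted p = 0.69). For the interaction of genotype and sex 2 receptor genes in the cortex and 2 in the cerebellum had an unadjusted p under 0.05, the largest being Chrnb4 in the cerebellum (95% interval from 0.10 to 2.30, edgeR adjusted p = 0.7), and 0% of all genes passed in any region. For the interaction of treatment and genotype the count of receptor genes at an unadjusted p under 0.05 was 0. Of all genes, 0.0972, 0.125 and 0.134% were called for sex in the striatum, cortex and cerebellum.

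The rest of the cholinergic system was read from lists, also chosen with earlier results known. In the same test 58.1% of all genes passed in the striatum, 57.1% in the cortex and 54.6% in the cerebellum. The counts of the lists alone therefore say little about cholinergic genes. Of 11 other acetylcholine receptor genes, 4 of 7 tested fell in the striatum and none rose, with a median log2 fold change of -0.44 beside 0.01 for all genes. Chrm4, the Gi-coupled M4 receptor of medium spiny neurons, fell from 110.4 ± 13.7 to 28 ± 3.06 CPM (SD, n = 10), a log2 fold change of -1.98 with an SE of 0.06 (edgeR adjusted p = 8.8e-25). In the cortex 3 of 7 fell and none rose, led by the M3 receptor Chrm3 at -1.03 ± 0.09 and by Chrm4 at -0.70 ± 0.08. In the cerebellum Chrm3 rose by 0.72 ± 0.18 and Chrna2 fell by 1.17 ± 0.25 on the log2 scale (SE, edgeR adjusted p = 0.0009 and 0.00013).

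Genes of acetylcholine handling fell most in the striatum, where 5 of 6 tested were lower and 1 higher with a median of -1.17. Slc18a3 of this list was not matched in the count table. Chat, which makes acetylcholine, fell from 30.9 ± 3.74 to 8.87 ± 1.32 CPM (SD, n = 10), and the choline transporter Slc5a7 from 58 ± 6.94 to 21.7 ± 1.93 CPM. Their log2 fold changes were -1.80 ± 0.08 and -1.42 ± 0.07, and those of the acetylcholinesterase anchor Prima1 and of acetylcholinesterase (Ache) were -1.77 ± 0.12 and -0.53 ± 0.07. In the cortex butyrylcholinesterase (Bche) rose by 0.70 ± 0.12 and the collagen tail gene Colq fell by 0.69 ± 0.22. In the cerebellum 2 of 5 rose and 3 fell, with Colq at -1.18 ± 0.12 and Slc5a7 at 1.30 ± 0.26 from WT levels below 1 CPM.

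Among 11 genes for assembly and modulation of nicotinic receptors, 5 of 10 tested fell and 3 rose in the striatum, where 58.1% of all genes passed. In the cortex 7 of 11 fell and none rose (57.1% of all genes), and in the cerebellum 7 of 11 fell and 1 rose (54.6% of all genes). Lynx1, a Ly6 protein that restrains nicotinic receptors, fell in each region, from 349.5 ± 26 to 119.9 ± 14.9 CPM in the striatum (SD, n = 10), by 1.08 ± 0.06 on the log2 scale in the cortex and by 0.52 ± 0.05 in the cerebellum. The related Lypd6 fell by 0.55 ± 0.07, 0.79 ± 0.07 and 1.03 ± 0.08 in the same order. Ly6g6e in the cerebellum fell from 1.09 ± 0.283 to 0.141 ± 0.0688 CPM, with a log2 fold change of -2.93 with an SE of 0.28 (edgeR adjusted p = 1.7e-11). The chaperone Ric3 rose by 0.17 ± 0.04 in the striatum.

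Of 17 genes of muscarinic signalling, 7 fell and 4 rose in the striatum, where 58.1% of all genes passed. In the cortex 10 fell and 3 rose (57.1% of all genes), and in the cerebellum 7 fell and 7 rose (54.6% of all genes). Rgs4, which speeds the shut-off of Gq and Gi, fell by 1.78 ± 0.08 in the striatum and 0.92 ± 0.07 in the cortex. Phospholipase Plcb1 fell by 0.78 ± 0.06 and 0.57 ± 0.06. In the cerebellum Plcb3 fell from 67.6 ± 5.89 to 18.3 ± 1.47 CPM, and the potassium channel gene Kcnj3 rose by 0.46 ± 0.05.

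**Figure D5:**
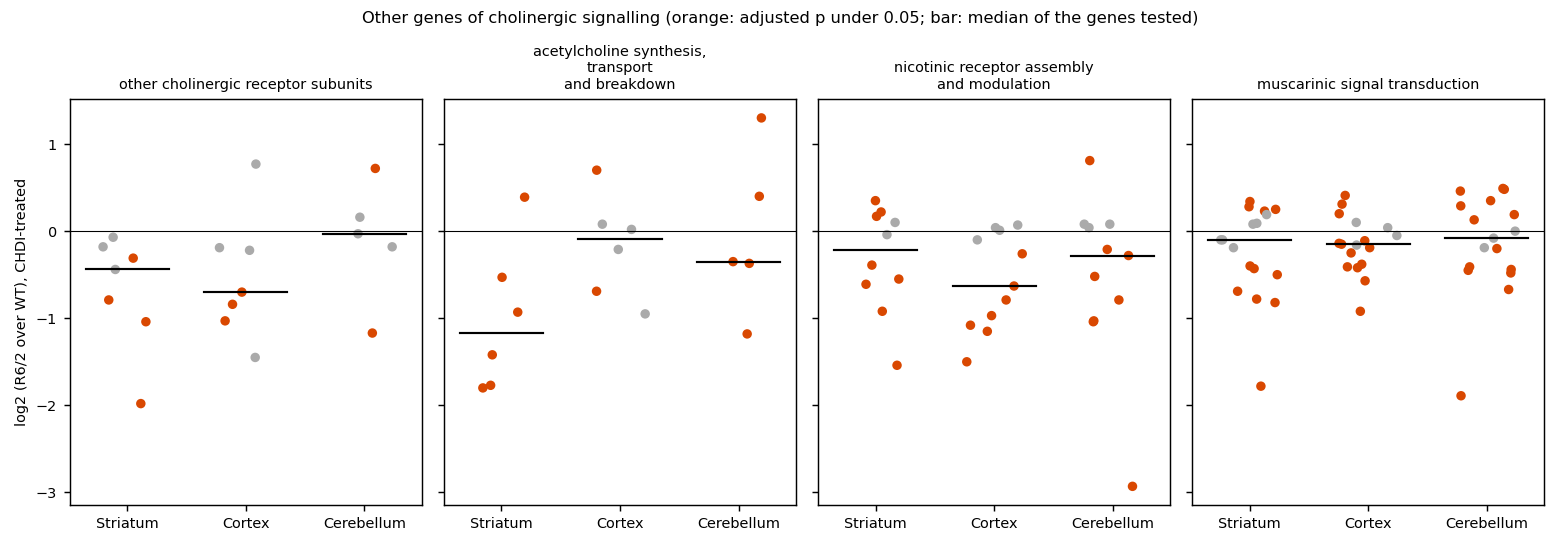
Log2 fold change of R6/2 over WT in CHDI-treated libraries for the tested genes of 4 lists, by region, with genes past an adjusted p of 0.05 in orange and a bar at the list's median. The striatal acetylcholine handling genes have the lowest median, -1.17, and in the cerebellum genes of each list lie on both sides of 0.

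Some genes had nearly the same profile as a receptor gene over the 12 brain groups. Among 14564 genes, Mmd, Tmem179 and Hs3st4 followed Chrm1 most closely (Pearson r of mean log2 CPM = 0.999 each). For Chrnb3 they were 1110008P14Rik (r = 0.995), Clec18a and Adam33 (both r = 0.994), and 1110008P14Rik was also first for Chrna6 (r = 0.969). Chrna5 was followed by Gm13306 (r = 0.989), Ptgs2 and Sytl2, Chrna3 by Mamstr (r = 0.986), Nab2 and Daam2, and Chrnb4 by Coq8a and Car9 (both r = 0.984) and Gm17597. For Chrna4 the nearest were Nova2 (r = 0.985), Adcy2 and Kif21b, for Chrna7 Ccdc88b (r = 0.982), Iqgap2 and Ubqln4, for Chrnb2 Aatf (r = 0.994), Ip6k1 and March2, and for Chrm2 Gpr26 and Arhgap32 (both r = 0.995) and Phlda3. The groups share region and genotype, and these likenesses are a description with no test.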

How the data were processed

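The authors deposited estimated counts and FPKM values per gene for 160 libraries, per the file headers, and CASAVA 1.8.2 is named in the submitters' processing notes. For the aligner, counter, strand setting and build the entry is: not given in the sources used here. Of the count values above 0, 73.4% were whole within 0.001. The FPKM columns are unreliable by library: 13 of 160 matched the count column of the same header, 160 of 160 a column of the same group, so FPKM was used by group.

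Counts were rounded and tested in R 4.3.3 with edgeR 4.0.16 (robust quasi-likelihood, means of genotype, treatment and sex, filterByExpr, TMM, Benjamini-Hochberg over all genes, adjusted p under 0.05), per region over 40 libraries. Differences between regions came from 60 CHDI-treated libraries of 3 regions, treated as separate, so any pairing of regions by mouse was not used. The 95% intervals are the estimate ± 2.04 SE. DESeq2 1.42.0, RLE scaling, other filters, FPKM with limma 3.58.1 (pseudocounts 1 and 0.1), the library L number, a replicate block and leaving out each replicate number were alternatives. Code was tested on simulated data.

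The genes and lists were chosen with earlier results of these data known. Of list genes, the 2 to 4 with the smallest p were named, with further genes named after their values were seen. The labels do not say that libraries are separate mice, so p-values measure the spread between libraries, which may be technical. Totals of 28471184 to 46301317 counts per library limit the precision of genes below 1 CPM. The liver was not compared.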

Additional observations from a re-analysis of the deposited data

Results flagged for a closer look

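A library was flagged where it stood apart from the other 9 of its group. For normally spread values chance gives about 1 in 20, a rate that need not hold for sparse counts, so no excess is read here. Libraries were flagged in 25 of 120 combinations of receptor gene and brain group. In the striatum these were Chrna3 at 0.946 and Chrna4 at 22.6 CPM in CHDI-treated R6/2 libraries, Chrna7 at 3.72 (low) and Chrnb3 at 0.282 CPM in vehicle R6/2 libraries, and Chrna5 at 0.832, Chrm1 at 175.5 and Chrm2 at 11 CPM (low) in vehicle WT libraries. In the cortex they were Chrna3 at 1.03 and Chrna4 at 20 CPM (low) in CHDI-treated R6/2 libraries, and Chrna3 at 0.764, Chrnb3 at 1.07 and Chrm2 at 24.2 CPM in vehicle R6/2 libraries. Cortical Chrnb4 stood apart at 0.436 CPM in a vehicle WT library and at 0.853 CPM in a CHDI-treated WT library.

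In the cerebellum of CHDI-treated R6/2 mice the libraries apart had 0.276 CPM of Chrna3, 0.322 CPM of Chrnb3, 0.322 CPM of Chrnb4 and 7.52 CPM of Chrm2. Among CHDI-treated WT libraries they had 0.448 CPM of Chrna6, 1.38 CPM of Chrna7 (low), 0.538 CPM of Chrnb3, 3.75 CPM of Chrnb4 and 1.19 CPM of Chrm1. Among vehicle R6/2 libraries they had 0.204 CPM of Chrna6 and 0.271 CPM of Chrnb3.

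The genotype effect differed between regions by an edgeR test of the difference for 13 pairs of gene and contrast, in log2 units. The values of Chrnb3, and that of Chrnb4 for cerebellum minus cortex, involve a region where the gene did not pass the filter on low counts. Those values are a description. Striatum minus cortex gave -1.04 for Chrna4, 1.93 for Chrna5 and 1.86 for Chrnb3. Cerebellum minus cortex gave -3.55 for Chrna3, 0.42 for Chrna7, -0.76 for Chrnb2, 1.29 for Chrnb3 and -4.21 for Chrnb4. Cerebellum minus striatum gave -3.98 for Chrna3, 1.01 for Chrna4, 0.80 for Chrna7, -0.61 for Chrnb2 and -4.58 for Chrnb4.

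The liver, outside the comparisons, held Chrna4 at a median of 22.4 CPM in CHDI-treated R6/2 libraries and 11.7 CPM in vehicle R6/2 libraries, against 3.94 and 5.65 CPM in WT. The ranges were 0.165 to 55.9 and 2.25 to 78.3 CPM in R6/2 and 1.99 to 18.7 and 1.32 to 15.9 CPM in WT, so the groups overlapped. This difference was not tested.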

How the results depend on the processing

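The number of receptor genes called between genotypes stayed within 1.5 times the reported one in every region and alternative run, and no fold change reversed. Only the count for cerebellum minus cortex, 5 as reported, moved further: to 3 with the library L number as a term, to 8 on FPKM with a pseudocount of 1 and no filter, and to between 3 and 5 without each replicate number. Leaving out each replicate number gave 6 to 8 called genes in the striatum and cortex, 5 to 6 in the cerebellum, 2 to 4 for striatum minus cortex and 4 to 5 for cerebellum minus striatum. Of the recomputed fold changes of single genes, 550 kept their direction and side of the threshold, 34 lost and 4 gained the threshold, and the cause was not tested. The FPKM scale with a pseudocount of 0.1 moved the median of all genes in the striatum to 0.14, from 0.01. Replicate numbers do not pair the libraries (mean correlation of same-numbered libraries -0.014, 0.041 and -0.013 in the striatum, cortex and cerebellum, with 10, 13 and 6 of 40 libraries correlating best with their own number), and the replicate block left the counts at 8, 8 and 5. Without libraries high in markers of other tissues, limits set after seeing the data, the count was 5 for cerebellum minus cortex, with Chrnb3 no longer among them. No receptor gene was called for drug, sex or either interaction in any alternative run; FPKM was not run for sex. Depth limits Chrna6, Chrnb3 and Chrnb4 where they lie below 1 CPM.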
